A study of Arabidopsis thaliana with 20 samples.

Results

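Whole Arabidopsis seedlings that overexpress full-length human ALKBH5 carrying the H204A change were compared with untransformed Col-0 seedlings, by m6A immunoprecipitation and sequencing of chromatin-associated RNA. The comparison uses 8 of the 20 libraries of the series: 2 immunoprecipitated (IP) and 2 input libraries per genotype. Every feature of both deposited tables entered, apart from the spike-in rows, which left 2291 m6A peaks and 30613 expression features. ALKBH5 is an m6A demethylase, and H204A replaces a histidine that binds iron in its catalytic site. The line is called inactive FL here. The other ALKBH5 lines express the active full-length form (FL), a form whose C-terminal disordered region was deleted (del-cIDR), or the deleted form with H204A (inactive del-cIDR). All lines are in the Col-0 background, and all seedlings were 10 days old and grown under long days on sucrose medium. The promoter of the transgene, and whether the line is a single transformant, are not given in the sources used here. The H204A protein, the insertion site and other features of the line therefore cannot be told apart. The transgene transcript is not analysed here, so its level gives no check of the labels. The sources do not say whether the 2 libraries per genotype came from separate plants, so p-values reflect only how far these libraries differ, and that spread may be technical.

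N6-methyladenosine (m6A) is the most common internal mark of plant messenger RNA. A writer complex around MTA and MTB deposits it during transcription, ALKBH9 and ALKBH10 proteins remove it, and ECT proteins with a YTH domain bind it. Chromatin-associated RNA is rich in transcripts still being made, along with RNAs that act or stay on chromatin. Inactive ALKBH5 serves as the control that carries the protein without its demethylase activity.

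In the deposited expression values the summed ERCC spike-ins were nearly equal in all libraries, at 109313 to 110569, and the scaling step behind this is not stated. The m6A spike-in, which had its own row, ran from 79342 to 98473 over the 10 input libraries and was highest in inactive FL library 1 (98473). The non-coding RNA AT3G06365 alone held 29.9% and 31.1% of the Col-0 signal and 32.7% and 32.3% of the inactive FL signal. The 30 markers of root, vascular, guard, epidermal, seed and dividing cells summed to 10572 and 10594 in Col-0 and to 9610 and 10289 in inactive FL. Of these markers 3 rose and 2 fell, where 16.9% of all features rose and 3.12% fell. After each library was centred on its own median 0 markers rose and 10 fell, where 1527 of all 30613 features rose and 5442 fell. None of the markers was at 0. Their part in the results below was not tested. The values are not counts, so the depth of the libraries is unknown and counting error could not be put on any value.

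The m6A level of inactive FL was lower than that of Col-0 across nearly the whole set of peaks. The median peak had a ratio of 6.60 and 7.09 in the Col-0 libraries and of 2.97 and 3.63 in the inactive FL libraries. Both inactive FL medians lay far below both Col-0 medians, a difference of -1.06 on the log2 scale. The 2 inactive FL libraries were both below the 2 Col-0 libraries at 2094 peaks, which is 91.4% of all peaks, and both above them at 2 peaks (0.0873%). The ratio is the authors' enrichment value, and the m6A spike-in had the same value in every IP library. Its denominator and the libraries in which peaks were called are not given in the sources used here. No Col-0 value was under 0.804, whereas inactive FL had 5 and 1 peaks listed at 0. The part of peak selection in the result was not tested.

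The 2 genotypes were proportionally farther apart at low percentiles of the ratio, each taken within its own library. At the 5th percentile the ratio was 3.11 ± 0.195 (SD, n = 2) in Col-0 and 0.471 ± 0.0522 in inactive FL, a 6.61-fold difference. At the 95th percentile it was 17.7 ± 2.19 against 10.8 ± 1.69, a 1.63-fold difference. The median lay between them, with 2.07-fold. At every one of these percentiles the libraries of the 2 genotypes did not overlap.

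**Figure D1:**
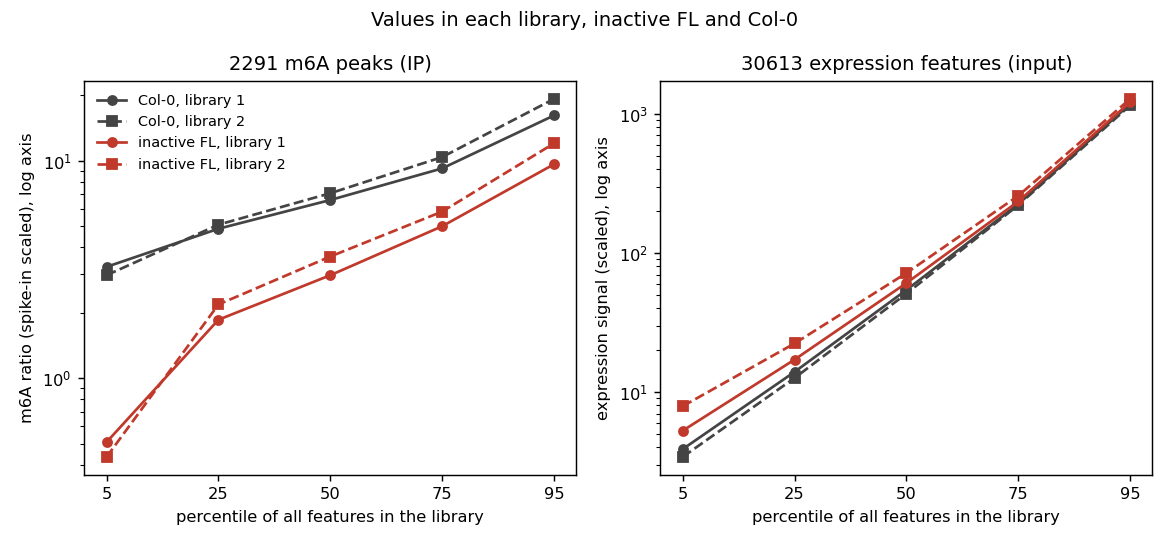
Values at 5 percentiles of all features in each Col-0 and inactive FL library, for the m6A ratio (left) and the expression signal (right), both on log axes. The m6A lines of the 2 genotypes are farthest apart at the 5th percentile (3.11 against 0.471, means of 2 libraries), and the expression lines differ most there too, in the opposite direction (3.65 against 6.59).

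With limma on log2(ratio + 0.54159), fitted over all 5 genotypes, 500 of 2291 peaks (21.8%) fell at a Benjamini-Hochberg adjusted p under 0.05 and 0 (0.0%) rose. At an unadjusted p under 0.05, limma gave 938 peaks, and 2269 peaks had a log2 fold change below 0. The median log2 fold change over all peaks was -0.97, and the pseudocount makes fold changes of low peaks smaller than their true size. When each library was centred on its own median, limma called 0 peaks in either direction (271 at an unadjusted p under 0.05), so no single peak was shown to depart from the general drop. When the test was run on the 1146 peaks at or above the median mean alone, limma called 0 of them in either direction (168 at an unadjusted p under 0.05), and a fit of the 2 compared genotypes alone called 1664 of all peaks. Without the level-dependent trend in limma's variance 313 peaks fell, and leaving out a library gave 216 (Col-0 library 1), 228 (Col-0 library 2), 259 (inactive FL library 1) or 332 (inactive FL library 2).

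The peaks were also grouped by their mean ratio in the 3 other ALKBH5 lines. Those lines were themselves below Col-0 at most peaks, so their level is not independent of the drop, and the classes describe where the calls lie without testing a dependence on level. In the lowest of 4 classes the median ratio was 4.15 in Col-0 and 1.35 in inactive FL, and 397 of 573 peaks (69.3%) fell. In the highest class it was 12.9 against 7.50, and 5 of 573 peaks (0.873%) fell. Without the variance trend these counts were 257 and 2. The standard error of a fold change was smaller in the lowest class (median 0.430) than in the highest (median 0.577), so equal fold changes were called more readily there.

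**Figure D2:**
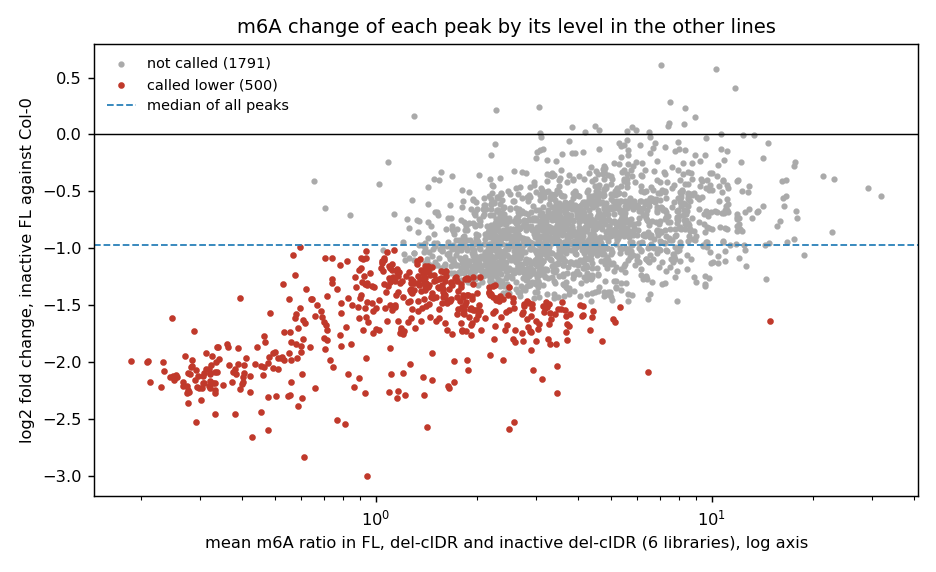
Log2 fold change of the m6A ratio of each peak, inactive FL against Col-0, by its mean ratio in the other ALKBH5 lines (log axis), with called peaks in red and the median of all peaks (-0.97) as a dashed line. The 500 called peaks lie mostly at low levels, and few of the 2291 points lie above 0.

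Peaks on organelle transcripts fell more often than nuclear ones. Of 23 peaks on the plastid genome 18 fell (78.3%, median log2 fold change -1.43), as did 17 of 21 on the mitochondrial genome (81.0%, median -1.72), against 465 of 2247 nuclear peaks (20.7%, median -0.97). Organelle peaks also had low ratios, with medians of 2.99 and 3.35 in Col-0 against 7.01 for nuclear peaks. Nuclear peaks with less than 50% of their length in any gene fell in 50 of 111 cases (45.0%). Those with at least 50% in exactly 1 gene fell in 384 of 2029 (18.9%). Among the latter, peaks on the genes of highest expression fell in 149 of 505 cases (29.5%), against 13.9% to 16.2% in the other 3 classes of host expression. The Col-0 ratio was lower on those highly expressed hosts (median 6.09) than in the other classes (7.30 to 7.64). Differences between these classes were not tested.

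Among stronger peaks, 46 passed the rule for naming, which asks for a call, libraries that do not overlap and a mean in the upper part of all peaks (no lower than their median), and the 12 of largest change are described. The largest drop was on RK2, an S-domain receptor-like kinase, at chr1:24476381-24476581 (TAIR10). Its ratio was 9.30 and 14.0 in Col-0 and 2.25 and 1.00 in inactive FL (log2 fold change -2.53 ± 0.559 SE, limma adjusted p = 7.72e-05). All inactive FL values lay well below both Col-0 values.

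DGK2, a diacylglycerol kinase, had a peak at chr5:25522431-25522665 with ratios of 11.9 and 11.3 in Col-0 and 1.44 and 2.65 in inactive FL (log2 fold change -2.27 ± 0.570, limma adjusted p = 0.000735). The DGK2 signal in the input rose over the same comparison, from 516 and 567 to 1836 and 1810 (log2 fold change 1.74). This was the largest host change among the 12. The peak on PHB, which encodes a class III homeodomain-leucine zipper factor that sets leaf polarity, was at chr2:14639357-14639625 and had 8.97 and 8.06 in Col-0 and 1.72 and 2.44 in inactive FL. The PHB signal itself was 503 and 451 against 499 and 539, a change that did not pass (limma adjusted p = 0.303).

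ECT7, itself an m6A reader of the YTH family, had a peak at chr1:17770085-17770356. Its ratio was 9.90 and 11.5 in Col-0 and 0.862 and 4.83 in inactive FL, so the 2 inactive FL libraries differed widely although both were lower (log2 fold change -2.03 ± 0.571, limma adjusted p = 0.00353). TAF15b, a TATA-binding protein associated factor, had 11.0 and 14.7 against 2.66 and 4.36 at chr5:23637652-23638010. MPPBETA, the beta subunit of the mitochondrial processing peptidase, had 8.62 and 8.40 against 1.96 and 2.13 at chr3:368516-368717. The spread between libraries was narrow at MPPBETA and wide at ECT7, and neither pair overlapped Col-0.

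The other 6 were HDH (histidinol dehydrogenase), CBR (a cytochrome b5 reductase), AT3G63340, AT3G26070, AT5G11680 and AT1G18030, with log2 fold changes of -1.82 to -2.15. At all 12 named peaks the 8 libraries of the ALKBH5 lines, active and inactive, were below both Col-0 libraries, which held for 1611 of all 2291 peaks. Host RNA rose for 3 of the 12 (DGK2, AT1G18030 and RK2, log2 fold changes 1.74, 0.48 and 0.23), a share near the 28.1% of all genes with a fallen peak, and fell for none. Without the variance trend 11 of the 12 were called, the exception being HDH (limma adjusted p = 0.0503), and after median-centring, or with the peaks at or above the median mean tested alone, none was called. Leaving out inactive FL library 1 ended all of these calls but that of RK2, leaving out Col-0 library 1 or 2 left 4 or 3, and leaving out inactive FL library 2 left 11.

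**Figure D3:**
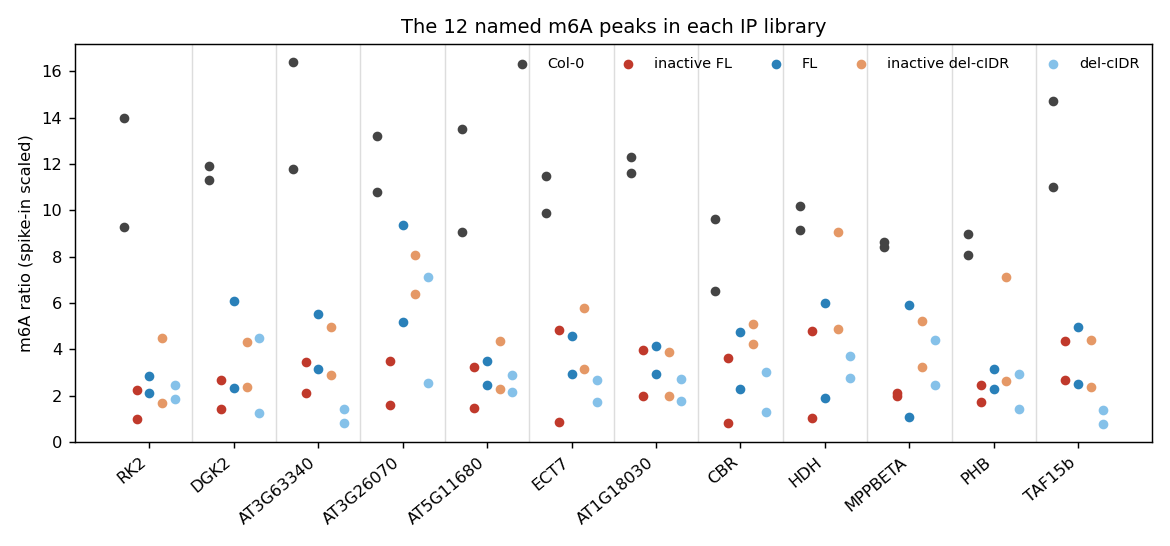
m6A ratio of the 12 named peaks in each IP library, 2 points per genotype. Col-0 has the 2 highest values at every peak, and inactive FL lies among or below the other ALKBH5 lines, for example at RK2 with 2.25 and 1.00 against 2.13 and 2.83 in FL.

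No peak rose. The 5 peaks of smallest p with a higher mean in inactive FL did not pass the rule, and the first of them, on AT2G12510, had 4.52 and 4.32 in Col-0 and 9.90 and 4.98 in inactive FL (limma adjusted p = 0.338). A single library made most of that difference. GB2, a small GTPase gene, had 10.8 and 10.1 against 9.66 and 16.9 (limma adjusted p = 0.647), with overlapping groups.

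Among genes of the lists, the peaks of smallest p lay on abundant or immune transcripts with low Col-0 ratios. SNC1, a nucleotide-binding immune receptor, carried 3 peaks, and all of them dropped to near 0. At chr4:9502386-9502589 the ratio was 2.05 and 2.31 in Col-0 and 0 and 0.0867 in inactive FL, at chr4:9503358-9503582 it was 1.88 and 3.21 against 0 and 0.119, and at chr4:9501398-9501799 it was 2.59 and 2.75 against 0 and 0.276. The 3 peaks share a transcript and are not independent. Their limma adjusted p of 2.43e-33 to 1.37e-30 rests on the small variance the trend assigns to low values, and without the trend it was 0.00418 to 0.00515. The SNC1 signal in the input rose, from 1355 and 1301 to 1960 and 2010 (log2 fold change 0.58 ± 0.0509, limma adjusted p = 9.14e-14). SNC1 belongs to a cluster of similar genes, so its reads may be split among copies.

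Nuclear photosynthesis genes carried 17 peaks on 15 genes, and 16 of these peaks fell. Of all peaks 21.8% fell, and of those in the lowest of the 4 level classes 69.3%. Their median log2 fold change was -2.06. PETE2, a plastocyanin gene, had 3.35 and 2.95 in Col-0 and 0.262 and 0.313 in inactive FL, and PSBR, a photosystem II subunit, had 3.34 and 2.69 against 0.235 and 0.250. LHCB6, a minor antenna protein, had 3.34 and 2.73 against 0.305 and 0.279. The same low range held for both peaks of COR47, a dehydrin gene (3.11 and 3.03 against 0.254 and 0.348 at the first, 3.14 and 2.90 against 0.393 and 0.340 at the other). It also held for GRP7, a clock-controlled RNA-binding protein (2.98 and 2.74 against 0.388 and 0.381), and for CAT3, a catalase (mean of 2 libraries 3.21 ± 0.293 SD against 0.339 ± 0.0103). In all of these the Col-0 ratio was near 3 and both inactive FL libraries were below 0.4, under the pseudocount of 0.54159. All 126 peaks with an inactive FL mean below the pseudocount were called. The other ALKBH5 lines were low as well where compared: GRP7 had 0.485 and 0.773 in FL and 0.238 and 0.325 in inactive del-cIDR. The first COR47 peak had 0.290 and 0.647 in FL and 0.166 and 0.341 in inactive del-cIDR. Input signals of the hosts moved differently: LHCB6 rose by 0.63 and COR47 by 0.48 on the log2 scale, PSBR fell by 0.23 and CAT3 fell by 0.35, and PETE2 (0.08) and GRP7 (0.08) did not pass.

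Of the peaks on other listed genes, those on LUX and SOC1 fell and those on GI, FLM and PHYB did not pass. Both calls were lost without Col-0 library 1, with a limma adjusted p of 0.223 for LUX and 0.0576 for SOC1. LUX, a subunit of the evening complex, had 4.58 and 3.95 in Col-0 and 1.55 and 1.43 in inactive FL (log2 fold change -1.24, limma adjusted p = 0.0260). SOC1, a floral integrator, had 3.50 and 4.17 against 1.03 and 1.37 (-1.33, limma adjusted p = 0.00461). The peak on FLM, a repressor of flowering, was high in all 4 libraries, at 15.4 and 14.4 against 12.4 and 8.35, and lower in inactive FL without passing (limma adjusted p = 0.405).

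The median expression signal moved upward in inactive FL, and percentiles most at low levels, but the summed signal did not rise. The sum was 33267786 and 34382876 in Col-0 and 33223802 and 32502076 in inactive FL. Its plastid part was 10316436 and 10466153 against 9034724 and 8623238. The mitochondrial part was 2119644 and 2176069 against 1749981 and 1710598. AT3G06365 alone held 29.9% to 32.7% of the sum in these libraries, so the sum does not describe the remaining features. With limma on log2(signal + 6.9386), 5173 of 30613 features (16.9%) rose and 955 (3.12%) fell, 6128 in all (20.0%), and 10377 had an unadjusted p under 0.05. Both inactive FL libraries were above both Col-0 libraries at 15037 features (49.1%) and below them at 2889 (9.44%). The median log2 fold change over all features was 0.22, and 0.12 without inactive FL library 2. After centring each library on its median, 1527 rose and 5442 fell, so the balance of directions depends on the scaling, and small changes near 0.22 turn with it. Without Col-0 library 2 the total was 3497, without inactive FL library 2 it was 3811, and without the variance trend it was 2819. Library medians were 54.2 and 51.0 in Col-0 and 60.8 and 71.7 in inactive FL, which do not overlap. At the 5th percentile the signal was 3.65 ± 0.332 (SD, n = 2) against 6.59 ± 1.86, both means under the pseudocount. At the 95th percentile it was 1160 ± 19.7 against 1250 ± 47.2.

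The medians of pseudogenes and transposable elements shifted up more than that of protein-coding genes, and more of these features were at low levels. The shares that rose were alike, at 18.1%, 16.9% and 17.1% in that order, and 16.9% over all features. In the lowest of 4 classes of signal the median log2 fold change was 0.33, and in the class above it 0.35. Pseudogenes had a median log2 fold change of 0.44 (504 of 2783 rose, 4 fell), transposable elements 0.38 (684 of 4050 rose, 32 fell) and protein-coding genes 0.17 (3898 of 22841 rose, 851 fell). After median-centring 198 transposable elements rose and 160 fell. Median Col-0 signals were 12.8, 13.9 and 96.0. Organelle-encoded transcripts went the other way: of 132 plastid features 33 fell and 10 rose, and of 14 mitochondrial features 9 fell and 0 rose. After median-centring 99 plastid features fell and 2 rose, and the mitochondrial counts were again 9 and 0. Over all 30613 features 5442 fell and 1527 rose after centring. Plastid features held 31.0% and 30.4% of the total signal in Col-0 and 27.2% and 26.5% in inactive FL, and mitochondrial ones 6.37% and 6.33% against 5.27% and 5.26%. In a bulk sample, fewer organelles or cells of a type and less RNA per cell cannot be told apart.

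The genes of largest increase included jasmonate, stress and transcription factor genes. Of 3622 features that passed the naming rule in this direction, the first 2 were BPS3, a relative of the root-to-shoot signalling gene BYPASS1, and SRO5, a stress-response gene. BPS3 had 20.5 and 26.5 in Col-0 and 254 and 271 in inactive FL (log2 fold change 3.15 ± 0.133, limma adjusted p = 6.24e-27). SRO5 had 47.1 and 45.1 against 461 and 467 (3.15 ± 0.0948). Replicates were close at both genes and far from the other genotype.

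LOX4, a 13-lipoxygenase that feeds jasmonate synthesis, had 273 and 310 in Col-0 and 1792 and 1951 in inactive FL (log2 fold change 2.66 ± 0.0608, limma adjusted p = 7.21e-39). CYP94B3, which inactivates jasmonoyl-isoleucine by hydroxylation, had 185 and 189 against 1282 and 1251 (2.71 ± 0.0660). Both the synthesis and the turnover gene were thus several times higher in both libraries. RRTF1, an ERF factor of the redox and wound response, had 22.6 and 36.0 against 199 and 211, and DDF1, an AP2 factor related to the CBFs, had 49.3 and 43.0 against 266 and 290. AT2G25460 and AT1G50750, protein-coding genes without a symbol in the gene table, rose by 2.74 and 2.57 on the log2 scale.

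Non-coding loci were among the 12 as well. The transposable element AT5TE31020 had 24.4 and 27.1 in Col-0 and 246 and 258 in inactive FL, and the pseudogene AT5G24915 had 28.5 and 34.9 against 277 and 304. The pair had similar levels in each genotype, and whether they overlap and share reads was not checked. AT3G00330, a non-coding RNA, rose from 14.4 and 14.0 to 150 and 163. AT3TE58775 was named because its groups do not overlap, but its 1255 and 38.9 in inactive FL against 33.0 and 22.7 in Col-0 rest on 1 library (log2 fold change 0.42 without inactive FL library 1).

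Among the features that passed the naming rule, the deepest fall was at AT3G01345, a protein-coding gene without a symbol, with 311 and 283 in Col-0 and 43.9 and 70.2 in inactive FL (log2 fold change -2.28 ± 0.254, limma adjusted p = 2.35e-10). Values in FL were similar (41.0 and 41.4), and those in inactive del-cIDR lower still (8.44 and 9.50). ARP9, an actin-related protein gene, had 620 and 652 in Col-0 and 261 and 306 in inactive FL (-1.15 ± 0.0874, limma adjusted p = 3.92e-16). ARP9 was not low in every ALKBH5 line: FL had 636 and 687, inactive del-cIDR 728 and 680, and del-cIDR 228 and 268.

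The other 10 of the 12 named falls, of 921 passing, were organelle transcripts, loci of chromosome 2, and a transposable element. The plastid feature ATCG00970 had 10767 and 10613 in Col-0 and 2950 and 3725 in inactive FL (-1.69 ± 0.0700), and ATCG00960 had 61456 and 75970 against 27254 and 35308. The mitochondrial feature ATMG01380 had 4365 and 4211 against 1756 and 2279. AT2G07707, AT2G07725, AT2G07698, AT2G07727, AT2G05225 and AT2G00490 fell by 1.08 to 1.31 on the log2 scale. Chromosome 2 holds an insertion of mitochondrial sequence, so their reads may come from mitochondrial RNA and cannot be assigned with certainty. Whether each of these loci repeats mitochondrial sequence was not checked. AT5TE40480 had 3758 and 535 in Col-0 and 430 and 378 in inactive FL, and its fall rests on 1 Col-0 library (log2 fold change -0.40 without Col-0 library 1).

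**Figure D4:**
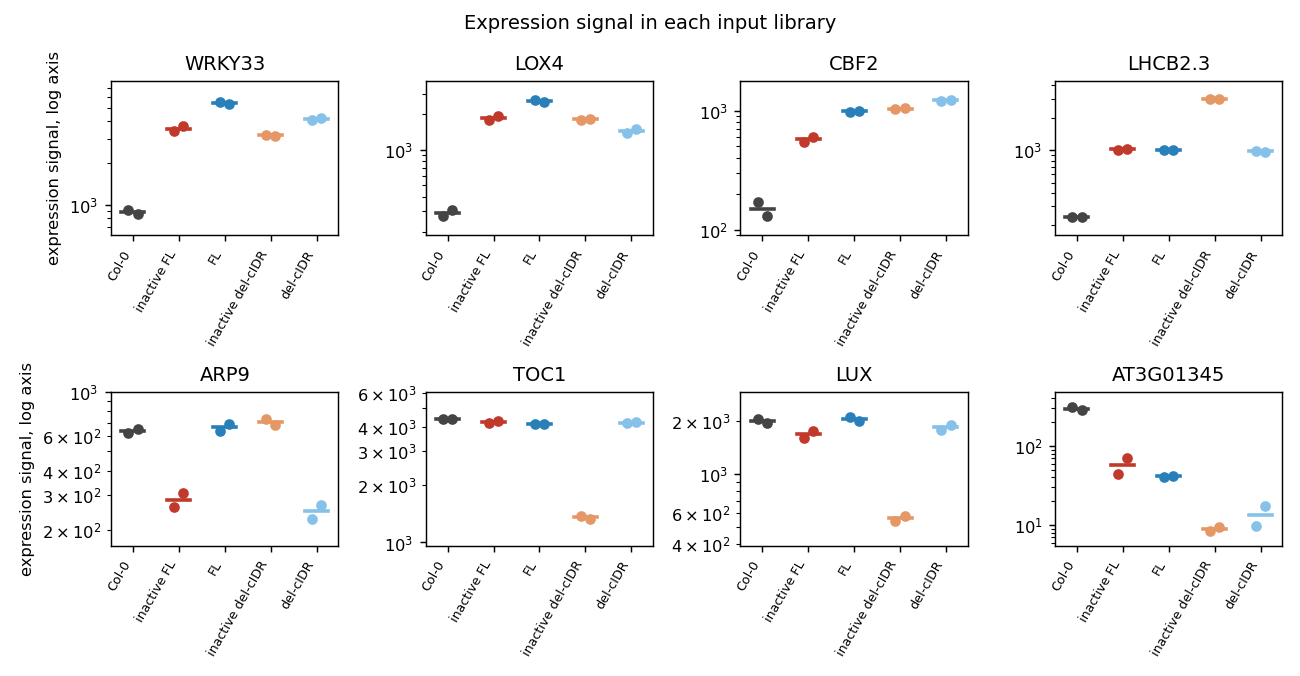
Expression signal (log axis) of 8 genes in each of the 10 input libraries, with the mean of each genotype as a bar. WRKY33, LOX4, CBF2 and LHCB2.3 are higher in inactive FL than in Col-0, ARP9 and AT3G01345 are lower, and TOC1 and LUX are far lower in inactive del-cIDR (TOC1 1376 and 1321) than in inactive FL (4201 and 4282).

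Gene lists for defence, wounding and cold had the highest medians of the lists examined. These lists and their members were chosen with earlier results of these data known, so the ranking and the list counts describe the values and test nothing. Over all features 16.9% rose and 3.12% fell, and in the highest of 4 classes of signal 26.8% rose and 10.8% fell. After median-centring 1527 of all 30613 features rose and 5442 fell, and every centred list count below is to be read against these. Among 10 WRKY factors of defence, 6 rose and 0 fell, both before and after median-centring, with a median log2 fold change of 1.07 against 0.22 for all features. WRKY33, which acts in immunity to fungi, had 918 and 861 in Col-0 and 3395 and 3700 in inactive FL (log2 fold change 1.99 ± 0.0483, limma adjusted p = 1.04e-37). WRKY40 had 695 and 704 against 2662 and 2861, WRKY18 116 and 118 against 321 and 338, and WRKY53 28.7 and 18.8 against 137 and 138. All inactive FL values of these 4 genes exceeded all Col-0 values by a wide margin.

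Jasmonate genes rose in 12 of 19 cases and fell in none, with a median of 0.51 (16.9% and 3.12% over all features, median 0.22). After median-centring 9 rose and 2 fell. LOX3, a lipoxygenase, had 243 and 271 in Col-0 and 1228 and 1299 in inactive FL, and OPR3, the reductase of jasmonate synthesis, had 157 and 158 against 394 and 351. JAZ1, a repressor that jasmonate removes and induces, had 241 and 267 against 618 and 646. Among other members JAZ5 rose by 1.98 and JAZ8 by 1.64, whereas the late responders VSP1 (0.51) and VSP2 (0.07) and the synthesis genes LOX2 (-0.14) and AOC1 (-0.27) did not pass.

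Rapid wound and touch genes rose in 9 of 14 cases and fell in 1, with a median of 0.84, where 16.9% of all features rose and 3.12% fell. After median-centring 9 rose and 4 fell. TCH3, a calmodulin-like touch gene, had 478 and 492 in Col-0 and 1362 and 1486 in inactive FL (log2 fold change 1.54 ± 0.0580). CML37, another calmodulin-like gene, had 43.1 and 40.8 against 205 and 200. The ERF factors ERF4 (945 and 945 against 1874 and 2047) and ERF6 (272 and 258 against 598 and 608) also rose, by log2 fold changes of 1.05 and 1.17. The single fall was XTH16, a cell wall enzyme (-0.69), named after its value was seen.

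Cold genes rose in 12 of 14 cases (16.9% of all features), with a median of 0.83, and after median-centring 10 rose and 2 fell. CBF2, a master activator of cold acclimation, had 170 and 130 in Col-0 and 546 and 600 in inactive FL (log2 fold change 1.90 ± 0.0804, limma adjusted p = 7.67e-27). CBF1 had 97.0 and 135 against 416 and 403, and reads of these close paralogs may be shared. ZAT12 (345 and 367 against 918 and 923) and RD29A (640 and 703 against 1324 and 1495), a zinc finger factor and a classic target, rose with them. COR27, a regulator of freezing tolerance and clock output, fell (1086 and 1097 against 883 and 936, -0.26 ± 0.0717), and without Col-0 library 2 it was not called (limma adjusted p = 0.0636).

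Abscisic acid genes rose in 9 of 11 cases (16.9% of all features), with a median of 0.50, and in 6 after median-centring, when 1 fell. PP2CA, a phosphatase that restrains the hormone's signal, had 2747 and 2715 in Col-0 and 3796 and 3946 in inactive FL. NCED3, the synthesis enzyme that drought induces, had 523 and 518 against 808 and 725. Increases here were smaller than for the CBFs, with log2 fold changes of 0.50 ± 0.0439 and 0.55 ± 0.0686.

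Salicylic acid and immunity genes rose in 8 of 14 cases (16.9% of all features) and fell in none, with a median of 0.55, and 6 rose after median-centring. CBP60G and SARD1, the paired activators of salicylic acid synthesis, had 260 and 230 against 474 and 571, and 20.5 and 19.6 against 76.0 and 78.4. EDS5, the exporter of the precursor, had 50.2 and 38.7 against 110 and 152. The marker genes PR1 (0.56), PR2 (0.33) and PR5 (0.18) did not pass.

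**Figure D5:**
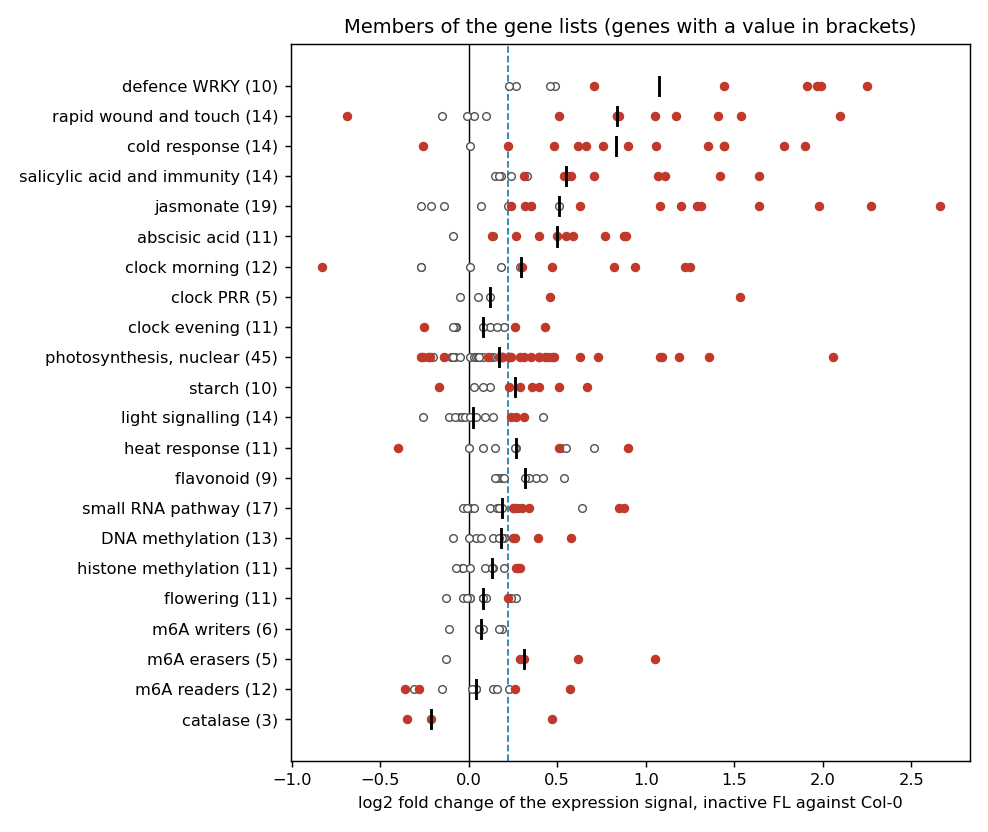
Log2 fold change of the expression signal, inactive FL against Col-0, of each member of 22 gene lists, with called members in red, a black bar at the list's median and a dashed line at the median of all features (0.22). Defence WRKY (median 1.07), wound and touch (0.84) and cold (0.83) lists lie farthest to the right. The lists were chosen with earlier results of these data known.

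Clock genes changed in part. The LNK coactivators, which act in the morning with RVE factors, all rose: LNK2 had 1337 and 1371 in Col-0 and 3084 and 3244 in inactive FL, LNK3 182 and 180 against 404 and 481, LNK4 302 and 311 against 510 and 589, and LNK1 191 and 159 against 307 and 379. Over the 12 morning genes 6 rose and 1 fell (16.9% and 3.12% over all features), and after median-centring 4 rose and 4 fell. CCA1 rose by 0.30 and LHY (-0.27) did not pass, while RVE2 fell by 0.83 on the log2 scale. In the PRR list of 5 genes 2 rose and 0 fell, and after median-centring 1 rose and 2 fell. PRR9, a repressor of CCA1 and LHY, had 50.2 and 47.4 against 152 and 157 (1.53 ± 0.136, limma adjusted p = 1.08e-13). Of the evening genes GI and FKF1 rose (0.43 and 0.26) and LUX fell (-0.25), and after median-centring 0 of 11 rose and 5 fell, with FKF1 turning to -0.03. FKF1 was not called without Col-0 library 1 (limma adjusted p = 0.0551). TOC1, the evening repressor, had 4390 and 4406 against 4201 and 4282, which did not pass (limma adjusted p = 0.422).

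Nuclear photosynthesis genes moved in both directions. Of 45 genes 24 rose and 5 fell (16.9% and 3.12% over all features), and after median-centring 7 rose and 17 fell. The balance of called directions in this list thus depends on the scaling. Members of the main antenna family of photosystem II differed widely among themselves. LHCB1.3 had 75458 and 75212 in Col-0 and 80884 and 81225 in inactive FL (log2 fold change 0.11), whereas LHCB2.3 had 238 and 238 in Col-0 and 1000 and 1033 in inactive FL (2.06 ± 0.0624), and LHCB1.1 had 5399 and 5222 against 13727 and 13617 (1.36 ± 0.0362). LHCB3 had 2420 and 2259 against 4832 and 5079, and LHCB2.2 had 565 and 608 against 1302 and 1402. LHCB1.2 had a log2 fold change of 0.73, and LHCB1.4 fell by 0.22 on the log2 scale. LHCB1 and LHCB2 copies are nearly identical, so reads may move between them. The Rubisco small subunit RBCS2B (-0.27), the ferredoxin FD2 (-0.26), PSBR (-0.23) and the Calvin cycle enzyme GAPA (-0.14) also fell. The 5 falls, LHCB1.2 and LHCB1.3 were named after their values were seen.

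Of the m6A pathway, erasers and readers held called genes and the 6 writers did not, where 20.0% of all features were called. At that share so short a list may well hold no call, so the 3 families are not contrasted. None of the 6 writers passed the test: MTA had 317 and 294 in Col-0 and 308 and 330 in inactive FL, MTB 667 and 615 against 726 and 733, and the log2 fold changes of the writers ran from -0.11 to 0.19. After median-centring 2 writers fell. Of 5 erasers 4 rose (16.9% of all features), and after median-centring 0 rose and 1 fell. ALKBH10A had 53.2 and 48.1 against 83.5 and 79.9, and ALKBH9A was low in all 4 libraries, at 1.92 and 3.41 against 9.71 and 16.7. ALKBH9B rose by 0.29 and turned to 0.00 under centring. Without inactive FL library 2 these 3 calls were lost, with limma adjusted p of 0.0501, 0.178 and 0.236 in that order. ALKBH10B, which acts in flowering, had 1146 and 1236 against 1053 and 1116 and did not pass (limma adjusted p = 0.120).

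Among 12 readers ECT2 and ECT3, the main readers of leaf growth, fell and ECT5 and ECT6 rose. Over all features 16.9% rose and 3.12% fell, so the share of readers that rose was near that of all features. ECT2 had 6989 and 6970 in Col-0 and 5335 and 5562 in inactive FL (log2 fold change -0.36 ± 0.0410, limma adjusted p = 5.39e-10). ECT3 had 916 and 908 against 753 and 743 (-0.28 ± 0.0662). The falls of both readers are small and their libraries do not overlap. After median-centring 0 readers rose and 5 fell, with ECT5 turning from 0.26 to -0.04. Neither ECT5 nor ECT6 was called without inactive FL library 2 (limma adjusted p = 0.251 and 0.0612).

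The remaining lists are to be read against the 16.9% of all features that rose and the 3.12% that fell. In the highest of 4 classes of signal 26.8% rose, and in the class below it 21.4%. After median-centring 1527 of all 30613 features rose and 5442 fell. Heat response genes rose at a share near that of all features, in 2 of 11 cases (HSFB1 0.90, HSFB2A 0.51) and fell in 1 (HSP70-4 -0.40, which was not called without inactive FL library 1, limma adjusted p = 0.154). None of 9 flavonoid genes passed. Starch genes rose in 6 of 10 cases, led by the amylase BAM1 (1220 and 1198 against 1854 and 2001), and GWD3 fell (-0.17, named after its value was seen). After median-centring 1 starch gene rose and 2 fell. Light signalling genes were also near the share of all features, with 3 of 14 rising, and after centring 0 rose and 8 fell.

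Against the same 16.9% of all features, and 26.8% in the highest class of signal, 6 of 17 silencing genes in the small RNA pathway rose. AGO3 (186 and 149 in Col-0 against 292 and 330 in inactive FL) and AGO6 (28.5 and 17.5 against 41.7 and 51.0) moved most. After centring 2 of these 17 genes rose and 3 fell. DNA methylation genes rose in 4 of 13 cases, led by the remodeller DDM1 (58.5 and 48.3 against 75.1 and 91.4), and histone methylation genes in 3 of 11. Both shares are near that of the highest class of signal. After centring 0 DNA methylation genes rose and 2 fell, and 0 histone methylation genes rose and 4 fell. Over all 30613 features 1527 rose and 5442 fell after centring. Of 11 flowering genes MAF2 alone rose (0.22), turning to -0.07 under centring. Without inactive FL library 2 the calls of AGO6, DDM1 and MAF2 were lost (limma adjusted p = 0.136, 0.146 and 0.183), and FLC (-0.03) did not pass. The catalases CAT3 (35704 and 34984 against 26966 and 28410) and CAT2 (-0.21) fell and CAT1 rose (0.47), which was not called after centring.

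m6A and expression were set side by side for genes with a peak of their own. Of 360 genes with a peak that fell, 101 rose in the input (28.1%) and 48 fell (13.3%). Of 1614 genes whose peaks were not called, 355 rose (22.0%) and 102 fell (6.32%). Both sets had a median log2 fold change of 0.08. Genes with a fallen peak had a higher Col-0 signal (median 727 against 503), and more features pass at higher signals in this table, 26.8% rising in the highest of 4 classes against 5.42% in the lowest. The difference between the sets was not tested.

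Inactive FL was also set against the line that expresses the active protein. Both comparisons with inactive FL share its libraries. In m6A, 5 of 2291 peaks (0.218%) were lower in inactive FL than in FL and 0 (0.0%) were higher, with 82 at an unadjusted p under 0.05 and a median log2 fold change of 0.01. The FL libraries differed from each other, with medians of 2.23 and 4.62, and inactive FL (2.97 and 3.63) lay between them. The count was 16 without FL library 2 (9 higher and 7 lower), 11 lower without FL library 1, 12 without inactive FL library 1 and 2 without inactive FL library 2. The 5 peaks, on AT2G05295, AT1G40104, AT4G20700, SNC1 and a site assigned to no gene at chr5:3252895-3253122, all had low means and did not pass the naming rule. AT1G40104 had 5.28 and 2.63 in FL and 0.597 and 0.141 in inactive FL (limma adjusted p = 0.00196). The SNC1 peak had 0.429 and 0.667 against 0 and 0.119, all of them far below Col-0.

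In expression a larger share of features was called between inactive FL and FL. Standard errors were larger for peaks than for well-expressed features, so the 2 shares do not show which measure differed more. In inactive FL 17790 of 30613 features (58.1%) were lower than in FL and 230 (0.751%) higher, 18020 in all (58.9%), with a median log2 fold change of -0.43. After median-centring 7885 were higher and 2279 lower, so this balance also depends on scaling. Without FL library 2 the total was 11897, and without inactive FL library 1 it was 9346. Library medians were 100.2 and 99.3 in FL and 60.8 and 71.7 in inactive FL. WRKY33 had 5470 and 5295 in FL, and LOX4 had 2629 and 2566, both above inactive FL, with log2 differences (-0.60 and -0.47) near the median of all features. Stress genes did not all go this way: of 14 cold genes 4 were higher and 6 lower in inactive FL than in FL, and RD29A was higher (1324 and 1495 against 1256 and 1184, limma adjusted p = 0.00480). ARP9 was lower in inactive FL than in FL by a log2 difference of -1.21, and AT2G41190, a putative amino acid transporter gene, was higher (843 and 832 against 471 and 473). The transposable element AT3TE58605 had the largest difference (-4.68), which rests on 1 FL library with 57922 against 187 in the other.

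Against inactive del-cIDR, the other line with H204A, m6A showed 0 called peaks in either direction (0.0%), with 32 at an unadjusted p under 0.05 and a median log2 fold change of 0.00. With a pseudocount of 1 limma called 1 peak higher, as it did without inactive FL library 1, and without inactive del-cIDR library 2 it called 3. Library medians of inactive del-cIDR were 2.51 and 4.57. The number of calls does not show that the lines had equal levels, since the spread between their libraries was wide.

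In expression the 2 inactive lines differed at 6093 of 30613 features (19.9%), with 2549 (8.33%) higher and 3544 (11.6%) lower in inactive FL. After median-centring 3695 were higher and 2726 lower, and without inactive FL library 1 there were 2821 higher and 2386 lower. All 45 photosynthesis genes were lower in inactive FL than in inactive del-cIDR, with a median log2 difference of -1.23, for example LHCB3 with 4832 and 5079 against 16500 and 16710. Of the 11 evening clock genes 8 were higher and 1 lower, among them LUX (1599 and 1757 against 542 and 578) and FKF1 (823 and 866 against 389 and 369). TOC1, of the PRR family, was also higher (4201 and 4282 against 1376 and 1321, log2 difference 1.65).

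The largest single differences were COR27 (883 and 936 in inactive FL against 141 and 134), JMJD5, a histone demethylase-like clock gene (751 and 823 against 113 and 126), and THA1, a threonine aldolase (1948 and 1941 against 310 and 284). Each of these was also called lower in inactive FL than in Col-0, by smaller log2 fold changes of -0.26, -0.38 and -0.32. The limma adjusted p were 0.00602, 0.000393 and 3.87e-05 in that order. CHS, the entry enzyme of flavonoid synthesis, was lower in inactive FL (22.0 and 48.4 against 261 and 226). Several of these genes follow the time of day, and the time of harvest of each genotype is not given in the sources used here, so its part was not tested. Jasmonate genes were lower in inactive FL in 10 of 19 cases and higher in none, whereas WRKY factors were higher in 3 and lower in 3 of 10. Over all features 8.33% were higher and 11.6% lower.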

How the data were processed

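Chromatin-associated RNA of whole seedlings was immunoprecipitated for m6A and sequenced, with input libraries, in 5 genotypes (2 IP and 2 input libraries each). Tools listed by the submitters' processing notes, with no version, are bedtools, featureCounts, MACS2, Picard, SAMtools, HISAT2 and fastp, and the listed build is TAIR10. The authors deposited a ratio per m6A peak, equal for the m6A spike-in in all IP libraries, and a normalized expression signal, nearly equal in summed ERCC spike-ins. Neither step, nor the denominator of the ratio, is given in the sources used here. No count model was used, since neither file holds counts, and the depth behind the values is unknown.

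From the deposited values, log2(ratio + 0.54159) and log2(signal + 6.9386), with the 5th percentile of non-zero values as pseudocount, were tested with limma 3.58.1 in R 4.3.3 over all 5 genotypes, with a variance trend and no block (two-sided; a feature was called at p under 0.05 after Benjamini-Hochberg adjustment across the whole table). A filter asking for the pseudocount in 2 libraries removed none. Fold changes are on these log2 scales, and understate changes of low features. The method was tested on simulated data. Gene names came from a RefSeq table of TAIR10.1, which matched 26417 of 30613 features, and 307 of 315 listed genes had a value. A peak was given to a gene when at least 50% of it lay within exactly 1 gene. Peak coordinates are those of the deposited table, on TAIR10.

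Named features were the 12 of largest change per direction against Col-0 (5 for the other comparisons) among those called, without overlap between groups and at or above the median mean, plus the m6A pathway genes and the 4 members of smallest p per list. The members and lists were chosen with earlier results of these data known. Alternatives were the pseudocount, the filter, the median-centring, the groups fitted, the trend, a block and leaving out each library. No peak or gene sequence was used. Python 3.11.15, pandas 2.3.3, numpy 2.4.6 and matplotlib 3.10.9 made the summaries and plots.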

Additional observations from a re-analysis of the deposited data

Results flagged for a closer look

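The 2 lines with H204A differed in part of their response relative to Col-0. Inactive FL and inactive del-cIDR share the Col-0 libraries, so the difference of their responses is the direct difference between them, which limma tested over all 30613 features. The features given here are those named for the size of their change against Col-0, and, of the list members named for their p, those with a log2 difference of at least 1. Over the whole lists, without the cell markers, 54 genes had a called difference of that size, 13 higher and 41 lower in inactive FL. Of these 54 genes 29 were in the nuclear photosynthesis list. Features of that size were not counted over the whole table, so these counts cannot be called unusual. At any size 8.33% of all features were called higher and 11.6% lower. All differences printed passed at a limma adjusted p under 0.05 unless said otherwise. Values are log2 differences, inactive FL minus inactive del-cIDR.

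Of the 12 largest increases in inactive FL against Col-0, 6 did not pass between the inactive lines: BPS3 (0.06), LOX4 (0.04), RRTF1 (0.08), AT3G00330 (-0.02), SRO5 (-0.21) and AT3TE58775 (1.21), with limma adjusted p of 0.121 to 0.963. Among the other 6, AT5TE31020 (2.18) and AT5G24915 (2.15) stood far above inactive del-cIDR. The differences were smaller at AT1G50750 (0.57), AT2G25460 (0.49) and the jasmonate turnover gene CYP94B3 (0.26), and DDF1, an AP2 factor, was lower (-0.39).

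Of the features that fell, AT3G01345 (1.98) was less reduced in inactive FL than in inactive del-cIDR. The actin-related gene ARP9 (-1.29) and AT5TE40480 (-1.94) were lower in inactive FL. So were the plastid features ATCG00970 (-2.28) and ATCG00960 (-0.89) and the mitochondrial feature ATMG01380 (-1.59). The named loci of chromosome 2 were lower as well, with AT2G07707 (-0.64), AT2G05225 (-0.64), AT2G00490 (-0.59), AT2G07725 (-0.55), AT2G07698 (-0.40) and AT2G07727 (-0.37).

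Among list members, the clock genes TOC1 (1.65), LUX (1.57) and FKF1 (1.14) and the defence factor WRKY53 (1.06) were higher in inactive FL. The antenna genes LHCB1.1 (-1.54), LHCB2.3 (-1.54), LHCB3 (-1.74) and LHCB2.2 (-1.78) were lower.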

How the results depend on the processing

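The drop of the median m6A ratio kept its sign, at -1.02 as a mean of log2 values and -1.20 to -0.92 without 1 library. The rise of the median signal (0.33) kept its sign but ranged more widely, at 0.25 and at 0.21 to 0.45, lowest without inactive FL library 2. Counts of calls moved more. Against Col-0 the m6A count of 500 became 0 with the peaks at or above the median mean alone, 0 after median-centring, 313 without the trend, 1664 with only the compared genotypes and 216 to 332 without 1 library. Against FL the 5 calls became 0 under each of those first 3 settings, 2 with only the compared genotypes and 2 to 16 without 1 library. Against inactive del-cIDR a pseudocount of 1 gave 1 call, and leaving out a library gave 0 to 3. In expression against Col-0, 6128 became 6969 after centring, with most calls lower, 2819 without the trend, and 3497 to 7146 without 1 library. Against FL, 18020 became 9696 with the upper-level features alone, 10164 after centring, with most calls higher, and 9346 to 18725 without 1 library. Against inactive del-cIDR, 6093 became 6421 after centring, with most calls higher, 3292 without the trend, and 4400 to 6109 without 1 library. The cause of these moves was not tested. No filter on low values gave the same counts in all 6 comparisons.

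Of 79 called expression features named in the text, 57 kept call and direction in every alternative run and 22 lost the call in at least 1. The sign turned under centring for ECT5 (-0.04), FKF1 (-0.03) and MAF2 (-0.07), and ALKBH9B went to 0.00. All 27 called peaks named lost the call under centring, 14 of them in another alternative too, and none changed sign. Expression calls lost without a library, and the peak calls of LUX and SOC1, were each lost without at least 1 other library too, except those of COR27, FKF1 and AT3TE58775.

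Replicate numbers are not stated to pair libraries, and deviations of same-numbered inactive FL and Col-0 libraries correlated at -0.043 across expression features and 0.117 across peaks. Those of inactive FL correlated at 0.08 and 0.288 with FL, and at 0.105 and 0.206 with inactive del-cIDR. With the replicate block, limma called 539 peaks and 6452 expression features against Col-0, 8 peaks (2 higher, 6 lower) and 18568 features against FL, and 0 peaks and 6142 features against inactive del-cIDR, and no call of a named feature changed. With no counts, the precision that depth allows cannot be stated, and 2 libraries per group limit every comparison.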
